A study of Mus musculus with 35 samples.

Results

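On day 9 of the reprogramming of mouse fibroblasts, 19421 regions were bound by KLF4 in both KLF4 libraries, and 33392 regions carried acetylation of histone H3 at lysine 27 (H3K27ac) in both H3K27ac libraries. Each region is a stretch of merged peaks that peaks of both libraries of the mark overlapped, on chromosomes 1 to 19 and X. The KLF4 regions were split by H3K27ac peaks of the same day: 14653 had one in both libraries and are called acetylated, 3287 had one in neither and are called unacetylated, and 1481 had one in 1 library and belong to neither class. The H3K27ac regions were split in the converse way into 14257 with KLF4 in both libraries (KLF4-bound), 14974 with KLF4 in neither (unbound) and 4161 with KLF4 in 1 library. Peaks merged across the series gave 33431 KLF4 regions, of which 57.3% had a peak in both day 9 KLF4 libraries, and 106500 H3K27ac regions, of which 29.7% had a peak in both day 9 H3K27ac libraries.

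KLF4 is a zinc finger transcription factor that binds GC-rich DNA containing a CACCC box, and it is one of the factors whose forced expression turns fibroblasts into pluripotent cells. H3K27ac is laid down by the acetyltransferases p300 and CBP and marks active promoters and enhancers. A bound site without the mark is a site where the factor sits on chromatin that lacks this sign of activity. In epithelial tissues and in embryonic stem cells KLF4 is known as a regulator of epithelial and pluripotency genes.

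The fibroblasts (MEF, mouse embryonic fibroblasts) came from mice of strain C57BL/6 x 129 with the OKSM cassette of reprogramming factors, KLF4 among them, at the Col1a1 locus and the transactivator M2rtTA at ROSA26. Doxycycline switched the cassette on. Cells of day 3, day 6 and day 9 had grown in medium for embryonic stem cells (ESC) to which doxycycline (1 µg/ml) and ascorbic acid (50 µg/ml) were added; those of day 3 were taken unsorted, and those of day 6 and day 9 were sorted for the surface marker SSEA1 ("SSEA+" in the labels). MEF libraries were of H3K27ac from cells grown without doxycycline. The ESC were the line V6.5, grown on irradiated feeder cells with serum and LIF, and 2 further KLF4 libraries came from ESC with a MEK inhibitor at 1 µM and a GSK3 inhibitor at 3 µM (2i). H3K27ac was mapped in MEF (2 libraries), day 3 (3), day 6 (3), day 9 (2) and serum ESC (2), and KLF4 in day 3, day 6, day 9, serum ESC and 2i ESC (2 each). Day 9 KLF4 can thus come from the cassette as well as from the cell's own gene. In such bulk samples, fewer cells with a peak and a weaker peak in each cell cannot be told apart.

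The 22 libraries analysed have 1 deposited peak list each, with 17493 to 88347 peaks for H3K27ac and 21129 to 34640 for KLF4 on the chromosomes used. The day 9 lists held 24004 and 26003 KLF4 peaks and 43974 and 45506 H3K27ac peaks. Of KLF4 peaks of replicate 1, 81.9% overlapped one of replicate 2, and 75.4% did the reverse; for H3K27ac these shares were 82.5% and 80.4%. The 4 day 9 libraries belong to the labelled batch EA-3702. The MEF and ESC libraries of H3K27ac belong to batch DG-3458, as do 2 of the 3 libraries at day 3 and at day 6. MEF, day 3, day 6 and ESC can thus be compared within that batch, while for day 9 against MEF or ESC stage and batch cannot be told apart. The KLF4 libraries of day 3 and of day 6 belong to batches EA-3702 and DG-4040, and those of 2i ESC to EA-3702 and DG-3012. Those of serum ESC belong to EA-2697 and EA-2643, which no other stage shares, so stage and batch cannot be told apart there. Sequencing depth is unknown, and a region without a peak may still carry signal below the limit of its list. Nothing in the labels says that replicates came from separate mice or cultures, so p-values measure the spread between libraries.

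H3K27ac at marker genes was compared with the labelled stage. Over all protein-coding genes, 66.1% had an H3K27ac region of both MEF libraries within 2.5 kb of the gene and 63.2% had one of day 9. Of 8 fibroblast markers, 8 had one in MEF, and 2 (Prrx1 and Twist1) had one at day 9. These 8 belong to a longer list of 20 fibroblast genes, of which 20 had one in MEF and 11 had one at day 9, a count near the share over all genes. Of 26 pluripotency genes, 21 had one at day 9. None of 6 primitive endoderm markers (Gata4, Gata6, Sox17, Foxa2, Pdgfra, Sox7) had one at day 9, while 4 of 6 trophoblast markers (Cdx2, Eomes, Elf5, Tfap2c) and 2 of 6 neural markers (Sox1, Nes) had one. The trophoblast count lies near the share over all genes. What these marker genes contribute to the results was not tested.

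The promoters that follow show what a day 9 KLF4 site looks like at a gene start. They are the 6 of the pluripotency and epithelial genes described further on whose start window holds the midpoint of a KLF4 peak of each day 9 library and whose peak ranked best, followed by Sox2, which was chosen after its values were seen because its KLF4 region alone among such windows had no H3K27ac. Each run is the 250 bases before the gene start, from RefSeq (GRCm38.p6, the build called mm10 in the notes to the lists), in the gene's own direction. Capitals mark matches to GGGNGTGG on either strand, the core of the known KLF4 motif.
Nanog: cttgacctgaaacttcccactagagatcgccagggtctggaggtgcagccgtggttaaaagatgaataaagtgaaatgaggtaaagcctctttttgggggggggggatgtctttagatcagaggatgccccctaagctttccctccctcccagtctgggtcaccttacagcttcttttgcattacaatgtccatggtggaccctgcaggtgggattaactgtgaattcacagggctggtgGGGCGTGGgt
Tdgf1: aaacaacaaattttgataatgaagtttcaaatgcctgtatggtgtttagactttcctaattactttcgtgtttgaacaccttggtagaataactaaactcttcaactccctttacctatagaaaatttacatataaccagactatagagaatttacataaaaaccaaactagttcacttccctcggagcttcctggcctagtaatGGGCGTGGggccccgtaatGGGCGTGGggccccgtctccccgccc
Dsp: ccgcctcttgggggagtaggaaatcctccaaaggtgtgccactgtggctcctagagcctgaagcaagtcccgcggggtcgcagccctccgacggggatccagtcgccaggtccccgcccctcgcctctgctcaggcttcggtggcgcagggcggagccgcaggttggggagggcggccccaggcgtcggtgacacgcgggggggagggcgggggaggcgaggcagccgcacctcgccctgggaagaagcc
Cldn4: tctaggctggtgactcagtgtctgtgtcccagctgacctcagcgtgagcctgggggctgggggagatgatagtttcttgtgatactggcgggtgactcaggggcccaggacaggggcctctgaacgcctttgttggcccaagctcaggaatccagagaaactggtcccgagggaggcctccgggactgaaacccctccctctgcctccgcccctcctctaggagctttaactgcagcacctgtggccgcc
Zfp42: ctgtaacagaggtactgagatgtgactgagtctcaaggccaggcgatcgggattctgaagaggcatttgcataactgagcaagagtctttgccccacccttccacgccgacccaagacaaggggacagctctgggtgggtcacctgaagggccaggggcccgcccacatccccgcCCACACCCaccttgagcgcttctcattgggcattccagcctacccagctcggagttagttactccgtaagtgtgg
Klf4: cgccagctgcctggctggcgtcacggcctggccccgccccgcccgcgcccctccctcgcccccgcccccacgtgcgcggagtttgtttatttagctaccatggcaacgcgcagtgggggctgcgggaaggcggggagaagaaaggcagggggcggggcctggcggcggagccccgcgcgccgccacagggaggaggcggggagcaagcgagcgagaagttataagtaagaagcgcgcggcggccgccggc
Sox2: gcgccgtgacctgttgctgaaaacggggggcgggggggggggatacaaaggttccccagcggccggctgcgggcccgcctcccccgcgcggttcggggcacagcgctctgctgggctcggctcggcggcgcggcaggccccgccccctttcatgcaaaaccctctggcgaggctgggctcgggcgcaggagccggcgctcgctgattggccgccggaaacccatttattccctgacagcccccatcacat
The stretches are chr6:122707239-122707488 (plus strand) for Nanog, chr9:110946159-110946408 (minus) for Tdgf1, chr13:38151044-38151293 (plus) for Dsp, chr5:134946935-134947184 (minus) for Cldn4, chr8:43307010-43307259 (minus) for Zfp42, chr4:55532476-55532725 (minus) for Klf4 and chr3:34649745-34649994 (plus) for Sox2.

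Nanog, a homeodomain factor of the pluripotency network, had a match that starts 10 bases before its gene start and a further match in the 50 bases after it. Tdgf1, a co-receptor for NODAL, had the same 8 letters GGGCGTGG 45 and 26 bases before its start. Zfp42, a zinc finger protein of stem cells also called Rex1, had CCACACCC 75 bases before its start. No match lay in these windows of Dsp, Cldn4, Klf4 or Sox2. Over 21045 start windows of 300 bases (250 before and 50 after the start), 19.6% held a match. The share was 32.5% of 4633 windows with a KLF4 and an H3K27ac region of day 9, and 45.6% of 204 windows with a KLF4 region and no H3K27ac peak. It was 15.5% of 5062 windows with an H3K27ac region and no KLF4 peak, and 14.0% of 9208 windows with neither. Mean GC content moved with these groups, at 65.2%, 63.5%, 59.3% and 48.8%, and its part in the shares was not tested. A match describes letters and not a site in use.

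Of the KLF4 sites of day 9 most were acetylated, and the acetylated regions were about evenly split between those with and without KLF4. H3K27ac of both libraries covered 75.4% of the KLF4 regions and H3K27ac of neither was found at 16.9%. KLF4 of both libraries was found at 42.7% of the H3K27ac regions and KLF4 of neither at 44.8%. Taken library by library, 71.0% to 73.0% of KLF4 peaks met an H3K27ac peak in the 4 pairings of a KLF4 with an H3K27ac library, and 37.1% to 39.9% of H3K27ac peaks met a KLF4 peak. With the peaks of the other mark moved by 1 Mb, 3.07% of KLF4 regions and 1.95% of H3K27ac regions kept an overlap in both libraries. Over all KLF4 regions of the series, 60.5% had H3K27ac in both day 9 libraries, and over all H3K27ac regions of the series 14.6% had KLF4 in both day 9 libraries. These shares moved with the overlap rule: 58.8% of KLF4 regions were acetylated when at least 50% of the shorter interval had to be shared, and 35.3% of H3K27ac regions were KLF4-bound under that rule. With lists cut to equal length within a mark these shares were 58.1% and 55.9%, and the contrast between them was nearly gone. Without KLF4 replicate 1, 50.3% of H3K27ac regions were KLF4-bound.

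The strength of a KLF4 peak went with its acetylation. Regions were ranked within each library by the authors' score and their mean ranks divided into 4 equal groups. From the strongest to the weakest group, 91.7%, 80.6%, 70.0% and 59.6% of KLF4 regions were acetylated. The median of the authors' fold enrichment at acetylated KLF4 regions was 5.11 in replicate 1 and 5.49 in replicate 2, and at unacetylated regions 4.12 and 4.45. The converse held more steeply: from the strongest to the weakest group of H3K27ac regions, 65.9%, 54.4%, 33.7% and 16.9% were KLF4-bound. Median H3K27ac fold was 7.70 and 8.33 at KLF4-bound regions and 3.70 and 3.98 at unbound regions. Weak sites were thus more often without the other mark in either direction, and how many of them fell short of the list limit for that mark was not tested.

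**Figure D1:**
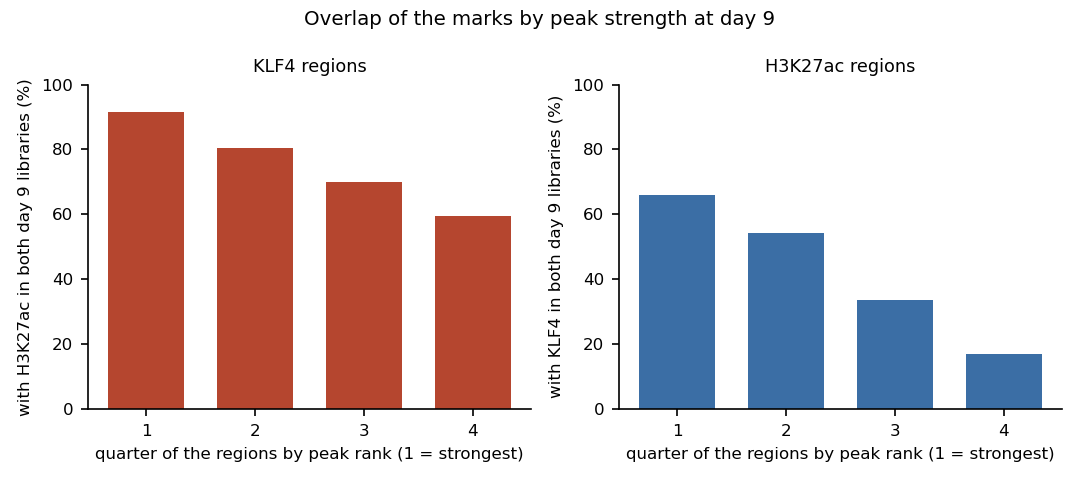
Share of day 9 KLF4 regions with H3K27ac in both libraries (left) and of day 9 H3K27ac regions with KLF4 in both libraries (right), in percent, for 4 equal groups of regions ordered by mean peak rank (1 is the strongest). Bars fall from 91.7% to 59.6% on the left and from 65.9% to 16.9% on the right.

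Acetylated KLF4 regions were wider and nearer to genes than unacetylated ones. Median width was 440 bp against 325 bp. A protein-coding gene start lay within 2.5 kb of 41.8% of acetylated and 13.0% of unacetylated KLF4 regions, and these shares were 7.55% and 6.88% after moving the regions by 1 Mb. The median distance to a start was 6.80 kb against 24.2 kb. Among H3K27ac regions, KLF4-bound ones were 1755 bp wide at the median and unbound ones 923 bp. Near a start lay 41.6% of bound and 33.5% of unbound regions, with median distances of 7.11 and 11.3 kb. Bound and unbound H3K27ac regions therefore differed more in width than in gene distance, while the KLF4 classes differed in both.

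Most H3K27ac regions with KLF4 held 1 KLF4 region, and those that held several were wider at the median. No KLF4 region lay in 18874 H3K27ac regions with a median width of 999 bp, 1 in 13246 (1632.5 bp), 2 in 1129 (3177 bp) and 3 or more in 143 (5269 bp); the most was 7. Median H3K27ac fold rose along this order from 3.88 and 4.17 in the replicates to 21.3 and 21.9. Within pairs of an acetylated KLF4 region and an H3K27ac region, the KLF4 midpoint fell in the inner 50% of the H3K27ac region in 63.0%, in the outer part in 22.7% and beyond its edge in 14.4% of 15385 pairs. Unacetylated KLF4 regions were not far from acetylation. Their median distance to an H3K27ac peak of either library was 8.35 kb, against 24.0 kb after the shift, and 24.2% had one within 1 kb, against 7.54%.

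Acetylated KLF4 regions of day 9 were acetylated at the other stages far more often than unacetylated ones. The libraries of MEF, day 3, day 6 and ESC took no part in defining the classes. Of acetylated KLF4 regions, 50.0% and 50.2% had a peak in the 2 MEF libraries, and of unacetylated regions 10.8% and 11.0%. At day 3, the acetylated class had 62.4%, 54.5% and 51.1%, and the unacetylated class 5.08%, 2.95% and 1.28%. The classes did not overlap in any library of these stages. At day 6 the acetylated class had 59.1%, 43.1% and 39.8%, and the unacetylated class 0.335%, 0.243% and 0.0913%; the highest value of each came from the library of batch EA-3702, to which the day 9 libraries belong. In ESC, 66.9% and 65.8% of acetylated regions had a peak, and 19.6% and 17.6% of unacetylated ones.

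The mean difference between the classes was 47.4 percentage points over these 10 libraries, with a higher share for the acetylated class in 10 of 10 (exact sign-flip permutation test, two-sided, p = 0.00195, the smallest it can give, adjusted p = 0.00521 over 8 tests). In this and each later sign-flip test, libraries of the same stage count as separate values. The p-value of such a test therefore does not measure the spread between stages. Within each of 4 equal groups of region width the ESC shares stayed apart: 55.0%, 54.8%, 62.2% and 73.6% of acetylated regions had H3K27ac in both ESC libraries, from the narrowest to the widest group, against 13.2%, 14.7%, 19.7% and 22.1% of unacetylated regions. Near a start the shares were 87.7% and 23.2%, and farther away 45.0% and 13.8%. Whether the class difference itself varied between stages was not resolved by the test (F = 1.89, exact permutation test, adjusted p = 0.257). The call changed without the day 6 library of batch EA-3702 (F = 13.0, unadjusted exact permutation p = 0.00476). It also changed within batch DG-3458 alone, where F was 34.5 (unadjusted exact permutation p = 0.0417 with the replicate number as a block and 0.00952 without it, each the smallest the test can give).

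Unacetylated KLF4 regions were least often acetylated at day 6 and most often in ESC. Their mean share with an H3K27ac peak was 10.9% ± 0.151 (SD, n = 2) in MEF, 3.10% ± 1.91 (n = 3) at day 3, 0.223% ± 0.123 (n = 3) at day 6 and 18.6% ± 1.40 (n = 2) in ESC. The stages differed (F = 105, exact permutation test, p = 0.000159, adjusted p = 0.00127), and the libraries of the 4 stages did not overlap. Within batch DG-3458 alone the stages also differed (F = 171, unadjusted exact permutation p = 0.0417 with the replicate block and 0.00952 without it, each the smallest the test can give). The lists were also shortest at day 6, with 17493 to 22462 peaks, against 41471 to 50836 at day 3 and 81231 to 88347 in MEF and ESC. With all lists cut to the length of the shortest the test kept its call (F = 44.8, exact permutation p = 0.000635). The means were then 1.42% at day 6, 3.85% at day 3, 5.52% in MEF and 10.3% in ESC, in the same order of stages and with a narrower range.

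**Figure D2:**
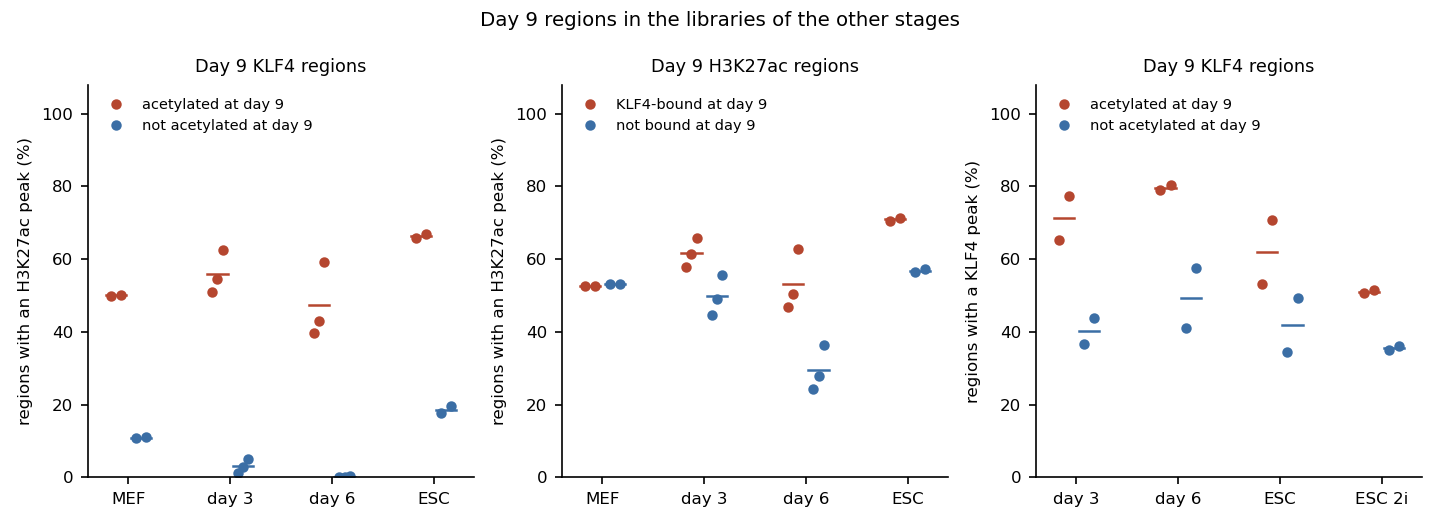
Share of day 9 regions with a peak in each library of the other stages, in percent; points are libraries and short lines are means. Acetylated KLF4 regions lie above unacetylated ones in each library, for H3K27ac (left) and for KLF4 (right), while KLF4-bound and unbound H3K27ac regions (middle) start together in MEF, at 52.6% and 53.2%, and part from day 3 on.

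For the H3K27ac regions, KLF4 binding at day 9 went with a different history of acetylation. In MEF, 52.7% and 52.6% of KLF4-bound regions had an H3K27ac peak in the 2 libraries, and 53.1% and 53.2% of unbound regions. At day 3 the bound class had 65.7%, 61.5% and 57.9%, and the unbound class 55.8%, 49.1% and 44.6%. At day 6 the bound class had 62.9%, 50.3% and 46.7%, and the unbound class 36.5%, 27.9% and 24.2%. In ESC the bound class had 71.2% and 70.6%, and the unbound class 57.3% and 56.3%. The difference, bound minus unbound, averaged -0.52 points in MEF, 11.9 at day 3, 23.7 at day 6 and 14.1 in ESC, and it differed between these stages (F = 89.7, exact permutation test, p = 0.000317, adjusted p = 0.00127). It also differed within batch DG-3458 alone (F = 1721, unadjusted exact permutation p = 0.0417 with the replicate block and 0.00952 without it, each the smallest the test can give). The share of bound regions was thus level with that of unbound regions in fibroblasts and higher within each library from day 3 on. This holds before width, peak rank or list length is taken into account. With lists of equal length the difference averaged -15.1 points in MEF, -4.85 at day 3, -2.08 at day 6 and -1.03 in ESC. With the top 50% of each list it averaged -16.5, -1.90, 5.61 and -0.15 points in the same order.

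With equal weight to groups of region width or peak rank the gap from day 3 on was smaller or reversed. Within the 4 width groups, from narrow to wide, 37.8%, 61.2%, 68.5% and 79.4% of KLF4-bound regions had H3K27ac in both ESC libraries, against 36.5%, 52.7%, 66.8% and 80.6% of unbound regions. In both MEF libraries the shares were 22.5%, 44.0%, 52.2% and 61.9% of bound and 32.1%, 52.3%, 66.7% and 80.8% of unbound regions. With equal weight to the 4 width groups, the difference was -13.5 ± 0.144 points in MEF (n = 2), -5.61 ± 0.687 at day 3 (n = 3), 1.39 ± 0.967 at day 6 (n = 3) and 2.11 ± 0.0931 in ESC (n = 2). Averaged over the width groups, bound regions were therefore less often acetylated in MEF and at day 3. At day 6 and in ESC the groups differed among themselves, and bound regions of the second narrowest group were more often acetylated, by 7.31 ± 0.515 points at day 6 (n = 3) and 7.17 ± 0.414 in ESC (n = 2). The stages still differed under this weighting (F = 244, exact permutation p = 0.000635), with MEF lowest and day 3 next as before. With equal weight to the 4 groups of H3K27ac peak rank the difference was -20.4 points in MEF, -10.2 at day 3, -4.83 at day 6 and -3.64 in ESC, so that averaged over the rank groups the bound class was lower at each stage.

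The mean difference over all 10 libraries was 13.4 points (exact sign-flip permutation test, p = 0.00781, adjusted p = 0.0125), with a higher share for bound regions in 8 of 10 libraries. Its direction did not hold: it was -3.54 points with equal weight to the width groups, -9.31 with equal weight to groups of peak rank, -2.22 with the top 50% of each list and -5.31 with lists of equal length. H3K27ac in both ESC libraries was found at 91.4% of bound and 79.4% of unbound regions near a start and at 51.2% against 38.9% farther away. That ESC gap was nearly gone with the top 50% of each list, at 66.5% against 65.9%, and with lists of equal length, at 54.2% against 54.3%. In MEF the direction differed with gene distance: bound minus unbound averaged 6.56 points near a start and -11.6 farther away. The number of KLF4 regions within an H3K27ac region ordered the ESC state as well, at 54.3% for none, 65.5% for 1, 83.9% for 2 and 92.3% for 3 or more, and width moved with that number as given above.

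**Figure D3:**
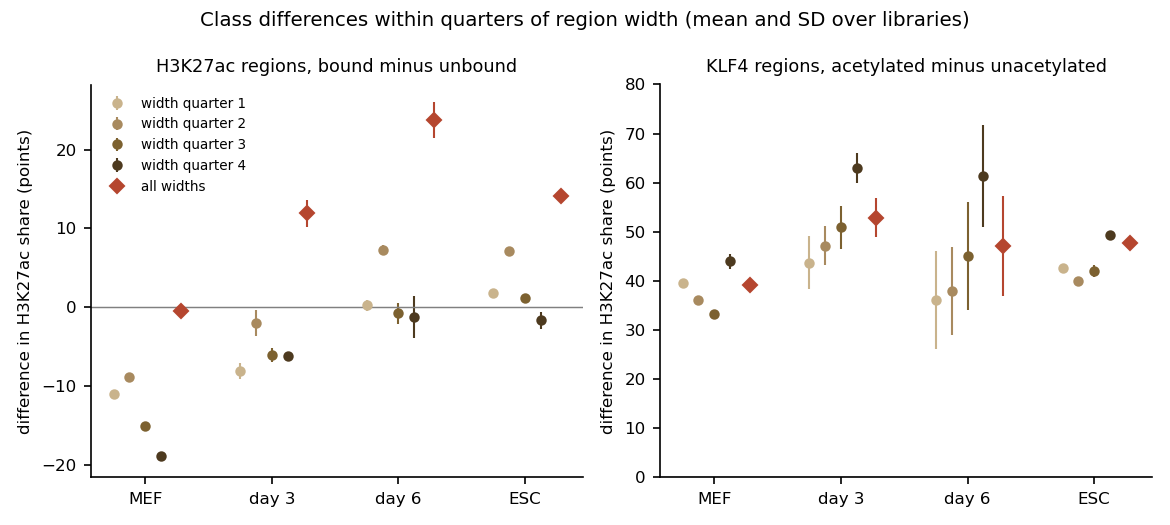
Difference between classes in the share of regions with an H3K27ac peak, in percentage points, as mean and SD over the libraries of each stage, within 4 equal groups of region width (1 is the narrowest) and over all widths (diamonds). KLF4-bound minus unbound H3K27ac regions (left) is below 0 in each width group in MEF and between -1.67 and 7.17 points in ESC, while acetylated minus unacetylated KLF4 regions (right) has no mean below 33.3 points.

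KLF4 itself was found more often at acetylated than at unacetylated day 9 regions at each other stage. At day 3, 77.4% and 65.2% of acetylated regions had a KLF4 peak in the 2 libraries and 43.7% and 36.6% of unacetylated regions. At day 6 these were 78.9% and 80.4% against 41.1% and 57.6%. In serum ESC they were 53.1% and 70.8% against 34.4% and 49.3%, and in 2i ESC 50.8% and 51.4% against 36.0% and 35.1%. The mean difference was 24.3 points, higher for the acetylated class in 8 of 8 libraries (exact sign-flip permutation test, p = 0.00781, the smallest it can give, adjusted p = 0.0125). It ran from 15.5 points in 2i ESC to 31.2 points at day 3, and a difference between the stages was not resolved (F = 3.59, exact permutation test, adjusted p = 0.254). The call changed without either day 6 library, whose differences were 37.8 and 22.8 points: without that of batch EA-3702 F was 13.8 (unadjusted exact permutation p = 0.0286) and without that of batch DG-4040 it was 24.9 (p = 0.0190). It also changed with equal weight to regions near and far from a start (F = 8.97, unadjusted exact permutation p = 0.0476). At matched width or rank the gap was smaller, with a mean of 15.0 points for equal weight to the width groups, from 4.79 in 2i ESC to 23.2 at day 3, and 14.0 for equal weight to the rank groups, still in 8 of 8 libraries. H3K27ac regions unbound at day 9 had KLF4 in a mean of 22.7% ± 10.0 at day 3, 14.4% ± 3.74 at day 6, 14.6% ± 6.72 in serum ESC and 15.3% ± 2.75 in 2i ESC (n = 2 each), and a difference between these stages was not resolved (F = 0.762, exact permutation test, adjusted p = 0.590).

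Put together over MEF and ESC, most acetylated KLF4 regions were either acetylated in both stages or in neither, as were most KLF4 regions of the series. The class differed from the series in holding more regions acetylated in both stages and fewer acetylated in neither. Of 14653, 41.5% had H3K27ac in both MEF and both ESC libraries, and 80.9% of these lay near a gene start. A further 24.0% had it in no library of MEF or ESC, and 8.12% of these lay near a start. In 19.7% it was found in ESC and not in MEF, with 13.2% near a start, and in 4.89% in MEF and not in ESC. Over all KLF4 regions of the series these shares were 27.5% for both stages, 34.5% for neither, 19.6% for ESC and not MEF and 7.47% for MEF and not ESC, so that the share in ESC and not in MEF lay near that of the series. The share of regions with H3K27ac in both ESC libraries over the class was 62.9%, against 48.7% over all KLF4 regions of the series. Of unacetylated KLF4 regions, 69.5% had H3K27ac in neither MEF nor ESC, 12.1% in ESC and not in MEF, 5.69% in MEF and not in ESC and 2.37% in both, and 15.0% had it in both ESC libraries whatever the state in MEF. In the H3K27ac classes, ESC acetylation stood at 67.9% of bound and 52.5% of unbound regions, against 45.8% over all H3K27ac regions of the series. Acetylation in MEF that was absent from ESC made up 4.60% of bound and 11.7% of unbound regions, against 39.4% over all H3K27ac regions of the series.

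**Figure D4:**
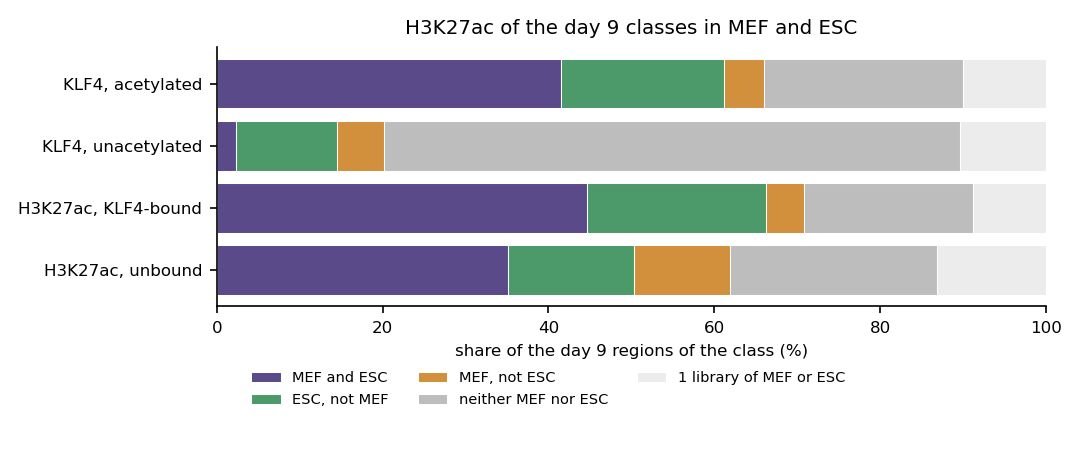
Share of the day 9 regions of each class, in percent, by H3K27ac in both or no libraries of MEF and of ESC; the palest part holds regions with a peak in 1 library of either stage. Regions with H3K27ac in neither stage make up 24.0% of acetylated and 69.5% of unacetylated KLF4 regions.

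KLF4 regions with H3K27ac in neither MEF nor ESC mostly lacked KLF4 in ESC as well, whether acetylated at day 9 or not. Among the 3510 acetylated KLF4 regions of this kind, 55.1% had KLF4 in both day 6 libraries and 15.0% in both serum ESC libraries, and 66.8% had it in none of the latter. Of the 2285 unacetylated regions of this kind, 22.4% had KLF4 in both serum ESC libraries and 60.1% in none. Over all KLF4 regions of the series these shares were 48.3% and 34.9%. Of the 14648 KLF4 regions of the series with no H3K27ac in ESC, 9251 had KLF4 in no serum ESC library. The lack of KLF4 in ESC thus lay near the share of regions without H3K27ac in ESC, in both classes. Among the 2886 acetylated regions with H3K27ac in ESC and not in MEF, 69.2% had KLF4 in both day 6 and 67.2% in both ESC libraries. Where KLF4 was in both ESC libraries, 84.4% of 7498 acetylated and 32.5% of 1060 unacetylated regions had H3K27ac in both ESC libraries; where it was in none, 21.3% of 3996 and 2.32% of 1595 had it. Of 1166 H3K27ac regions that were unbound at day 9 and had KLF4 in both ESC libraries, 90.1% had H3K27ac in both ESC libraries, against 43.3% of the 11768 without KLF4 in ESC. Bound regions with KLF4 in both ESC libraries had 89.3%, and all H3K27ac regions of the series had 90.1% of 12516 with KLF4 in both ESC libraries and 35.2% of 84190 without, so that the 90.1% of unbound regions equals the share of the series. Over all KLF4 regions of the series the shares were 70.7% of 16158 and 14.8% of 11671. The share with ESC acetylation was higher where KLF4 was in both ESC libraries in each of these 3 classes, as a description without a test. In the unacetylated class 56.4% of the regions with KLF4 in both ESC libraries had H3K27ac in neither. Median H3K27ac fold at day 9 was 12.2 and 13.4 at acetylated KLF4 regions that were acetylated in ESC and 5.37 and 5.56 at those with no H3K27ac in ESC, while median KLF4 fold was 5.12 and 5.57 against 4.98 and 5.30.

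The strongest acetylated KLF4 regions by mean rank lay at or in Flrt1, Arhgap28, Klf3, Map4k4 and Rif1. The region of Flrt1, chr19:7143803-7144441, had a KLF4 fold of 28.4 and 34.3 and an H3K27ac fold of 4.07 and 3.99, the lowest H3K27ac of the 5. Klf3, a repressor of the same factor family as KLF4, had a region over its start at chr5:64802786-64804221 with a KLF4 fold of 23.8 and 27.9 and an H3K27ac fold of 45.0 and 44.4. Rif1, a factor of replication timing, had one at an end of the gene with a KLF4 fold of 35.4 and 37.0. The 5 had KLF4 in both libraries of day 3, day 6, serum ESC and 2i ESC and H3K27ac in both ESC libraries. Over all acetylated KLF4 regions the KLF4 shares were 61.1% at day 3, 68.8% at day 6 and 51.2% in serum ESC. H3K27ac in both ESC libraries was found at 62.9% of them. The 5 were chosen by KLF4 rank.

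The strongest unacetylated KLF4 regions stood nearest to S100a14, Map3k6, Lrrc26, Ppia and Zfp57. The region 0.969 kb from an end of S100a14, a calcium-binding protein of epithelia, at chr3:90525400-90525880, had a KLF4 fold of 24.3 and 23.9, and 101 KLF4 regions ranked at or above it, itself included. In Map3k6, a stress kinase gene, chr4:133250542-133251163 had a KLF4 fold of 12.1 and 13.0. Neither had H3K27ac at day 3, day 6 or in ESC. In MEF the S100a14 region had an H3K27ac peak in 1 library and the Map3k6 region in none. The region nearest to Zfp57, a zinc finger protein that guards imprinted loci, lay 5.20 kb from its start inside H2-M5. At chr17:36995384-36995966 it had a KLF4 fold of 15.7 and 17.5, no H3K27ac in MEF, day 3, day 6 or day 9, and H3K27ac in both ESC libraries. All 5 had KLF4 in both libraries of day 3, day 6, serum ESC and 2i ESC. Over all unacetylated KLF4 regions these shares were 28.8% at day 3, 34.0% at day 6 and 32.2% in serum ESC. The 5 were chosen by KLF4 rank, so their binding at each stage does not describe the class.

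Among acetylated KLF4 regions with no H3K27ac in ESC, the strongest lay by Atxn7l1, Gfod1, Krt80, Pkp1 and Maml2. Krt80 codes for an epithelial keratin and Pkp1 for plakophilin of desmosomes. The region 20.5 kb from an end of Krt80, chr15:101327195-101327773, had a KLF4 fold of 23.5 and 27.4 and an H3K27ac fold of 2.94 and 3.06, and no KLF4 at day 3 or in serum ESC. That of Pkp1, chr1:135857018-135857877, had a KLF4 fold of 17.6 and 15.4 and had KLF4 in both libraries of serum and of 2i ESC. Unacetylated regions with H3K27ac in both ESC libraries were led by Ppia, Zfp57, Mob3c, Klhdc8a and Catsperd, each with KLF4 in both serum ESC libraries. Of all 493 regions of this kind, 344 had KLF4 in both serum ESC libraries. The strongest KLF4-bound H3K27ac regions were those of Pcbp1, Ywhaz, Gm3448, Rbm39 and Pou6f1, and the strongest unbound ones those of Epc1, Flcn, Clk1, Rbm33 and Ptbp2. These 10, chosen by H3K27ac rank, had H3K27ac in each library of MEF, day 3, day 6 and ESC. Over the classes, H3K27ac in both MEF and both ESC libraries was found at 44.7% of bound and 35.1% of unbound regions. Pcbp1, an RNA-binding protein, had an H3K27ac fold of 63.3 and 65.7, and Flcn, folliculin, had 55.8 and 53.7 with no KLF4 at any stage.

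Genes were then placed by the regions within the gene and 2.5 kb to each side. Of all 21631 protein-coding genes, 36.9% had an acetylated KLF4 region, 3.07% had both marks apart, 23.2% had H3K27ac alone and 34.6% had neither mark at day 9. Among 26 pluripotency genes, 18 had an acetylated KLF4 region, 2 had both marks apart, 1 had H3K27ac alone and 5 had neither. Among 20 epithelial genes, 17 had an acetylated KLF4 region, 2 had H3K27ac alone and 1 had neither. Of 20 genes of LIF, WNT, FGF, BMP and NODAL signalling, 14 had an acetylated KLF4 region and 3 had neither. Of 20 fibroblast genes, 3 had an acetylated KLF4 region, 6 had H3K27ac alone and 8 had neither. The 6 with H3K27ac alone and the 8 with neither mark lie near the shares over all genes. The lists were drawn up with earlier results of these data known, gene length was not matched, and the counts have no test.

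**Figure D5:**
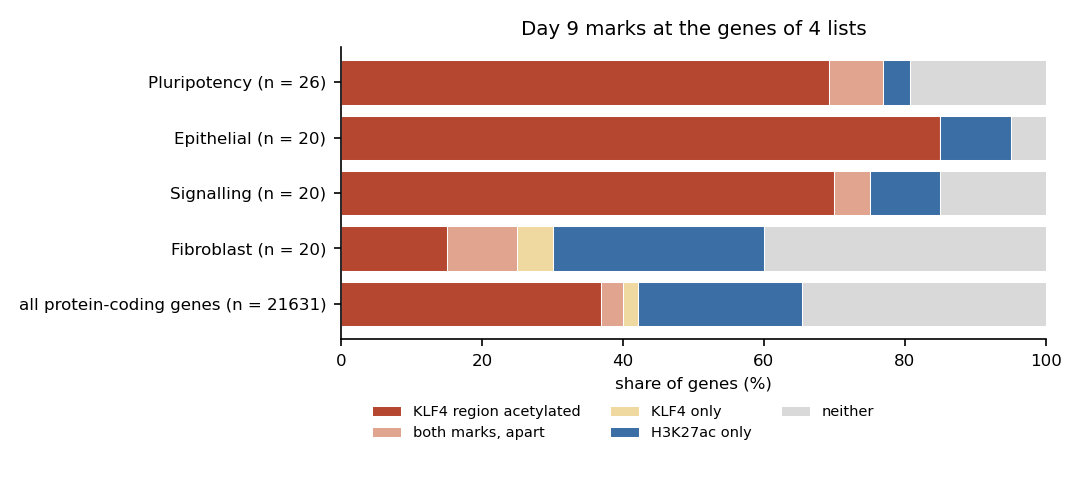
Share of the genes of 4 lists and of all protein-coding genes, in percent, by the day 9 marks within the gene and 2.5 kb to each side. An acetylated KLF4 region was found at 18 of 26 pluripotency, 17 of 20 epithelial, 14 of 20 signalling and 3 of 20 fibroblast genes.

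The 5 pluripotency genes with the best ranked KLF4 regions were Pou5f1, Nr5a2, Tet2, Gdf3 and Mycn, and those regions were acetylated. At Sox2, Esrrb and Utf1 the best ranked KLF4 region had no day 9 H3K27ac. Pou5f1, the octamer factor OCT4, had one upstream of its start at chr17:35503768-35504402 with a KLF4 fold of 24.4 and 32.0 and an H3K27ac fold of 6.47 and 7.23. Nr5a2, an orphan nuclear receptor, had one at chr1:136953489-136954306 with a KLF4 fold of 19.9 and 23.4 and an H3K27ac fold of 10.0 and 11.7. Tet2, a 5-methylcytosine oxidase, had one at chr3:133524496-133525348 with a KLF4 fold of 20.8 and 22.5. All of these had H3K27ac in both ESC and in no MEF library. Gdf3, a ligand of the TGF-β family, had a higher H3K27ac fold than these, 27.2 and 28.4, at chr6:122607746-122608859, where 1 MEF library had a peak. At the Nanog promoter printed above, the region chr6:122707225-122707654 had a KLF4 fold of 9.79 and 9.70 and an H3K27ac fold of 4.32 and 3.65, with KLF4 in both libraries of day 6 and none at day 3. Tbx3 had H3K27ac alone, and Prdm14, Dppa2, Dppa3, Dppa4 and Dppa5a had neither mark at day 9; of these 6, all but Dppa3 had H3K27ac of both ESC libraries, as had 65.2% of all protein-coding genes.

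The acetylated KLF4 regions of the pluripotency genes were 29 in number, and 28 of them had H3K27ac in both ESC libraries; the exception lay in Tet2. In MEF, 23 of the 29 had none. Over all acetylated KLF4 regions, 62.9% had H3K27ac in both ESC libraries and 48.2% had none in MEF. A further 7 KLF4 regions at 6 of these genes were unacetylated, at Sox2, Zfp42, Esrrb, Sall4, Utf1 and Tet2. Of all protein-coding genes, 7.92% had an unacetylated KLF4 region. All 7 had H3K27ac in both ESC libraries and none in MEF; over all unacetylated KLF4 regions, 15.0% had H3K27ac in both ESC libraries and 87.4% had none in MEF. Of these 7, 6 had no KLF4 peak at day 3, 6 had none at day 6, and 6 had one in both serum ESC libraries. Over all unacetylated KLF4 regions these shares were 48.6%, 35.4% and 32.2%. Most of the 7 were weak: those of Sox2, Zfp42, Utf1 and Tet2 and the weaker of Esrrb had mean ranks from 15087 to 18122 among 19421 KLF4 regions. The regions of Sall4 and the stronger of Esrrb had mean ranks of 7182 and 8015. Whether peaks missing at other stages fell short of a list limit was not tested. At the Sox2 promoter printed above, the region chr3:34649785-34650018 had a KLF4 fold of 2.77 and 4.47, among the weaker ones, with KLF4 in both day 3 libraries, in none of day 6 and in 1 of serum ESC. Esrrb, a nuclear receptor of the naive network, had 2 unacetylated KLF4 regions, of which the stronger, chr12:86463010-86463311, had a KLF4 fold of 4.29 and 8.11. These regions were therefore bound at day 9 and acetylated in ESC, with no H3K27ac peak at day 9.

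Acetylated KLF4 regions of the epithelial genes numbered 39 at 17 genes. Of these, 21 had H3K27ac in both ESC libraries and 11 in none, and those 11 had none in MEF either. These counts lie near the shares over all acetylated KLF4 regions, 62.9% with both and 30.2% with none in ESC. The 11 lay at Epcam, Krt8, Dsp, Grhl2, Ocln, Ovol1 and Crb3. Crb3, a polarity protein, had one at chr17:57060428-57060964 with a KLF4 fold of 11.8 and 11.8 and an H3K27ac fold of 5.13 and 5.03; KLF4 was found there in both ESC libraries. Dsp, desmoplakin, had 3 of them inside the gene, each with KLF4 in 0 or 1 ESC library, while the region over its start, shown above, had an H3K27ac fold of 17.0 and 16.7 and was acetylated in both ESC libraries. Cldn4, a tight junction claudin, had a region at chr5:134945186-134945709 with a KLF4 fold of 8.70 and 11.0 and an H3K27ac fold of 23.1 and 22.5, acetylated in both ESC libraries. Cdh1, E-cadherin, had 6 acetylated KLF4 regions, each with H3K27ac in both ESC libraries, and the strongest, chr8:106631560-106632008, had a KLF4 fold of 9.71 and 9.01. Krt18 and Krt19 had H3K27ac alone, and Krt7 neither mark.

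At signalling genes, 23 of 28 acetylated KLF4 regions had H3K27ac in both ESC and 21 in both MEF libraries. Over all acetylated KLF4 regions these shares were 62.9% in ESC and 48.4% in MEF. Tcf7l1, a repressor at the end of the WNT pathway, had 6, of which chr6:72655860-72656445 had a KLF4 fold of 15.3 and 16.1. Nodal, a TGF-β family ligand, had 2 with none in MEF, and chr10:61415838-61416431 had a KLF4 fold of 12.9 and 12.4. Spry4, an inhibitor of FGF signalling, had one with a KLF4 fold of 13.9 and 16.9. Id1 and Id3, targets of BMP signalling, had 2 and 3. The receptor genes Lifr and Il6st had H3K27ac alone, and Lef1, Bmp4 and Lefty2 had neither mark.

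Of the fibroblast genes, Fn1 (fibronectin), Col1a1 and Runx1 had acetylated KLF4 regions. The strongest was that of Fn1 at chr1:71645919-71646371, with a KLF4 fold of 12.5 and 14.7, H3K27ac in both ESC libraries and none in MEF. Col1a1, the locus that carries the OKSM cassette, had an acetylated region at chr11:94952251-94952668 and an unacetylated one at chr11:94936865-94937318, which was acetylated in both MEF and in no ESC library and had KLF4 in both libraries of day 3, day 6 and serum ESC. Runx1 had 4 acetylated regions. Snai1, a repressor of E-cadherin, had 3 unacetylated KLF4 regions and no H3K27ac region at day 9. Col1a2, Col3a1, Thy1, Twist2, Snai2, Postn, Loxl2 and Tgfb1 had neither mark at day 9, and each of the 8 had H3K27ac in both MEF libraries, as had the other 12 of the list. Over all protein-coding genes 34.6% had neither mark at day 9, and the 8 of 20 lie near that share. H3K27ac of both MEF libraries was found at 66.1% of all protein-coding genes.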

How the data were processed

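ChIP-seq of H3K27ac (12 libraries) and KLF4 (10) was analysed from the peak lists that the authors deposited, 1 per library; 13 input libraries were not used here. The submitters' processing notes name cutadapt 1.8.1, Bowtie2 2.2.5, deepTools 2.3.6, MACS2 2.1.1 and build mm10; settings and control are not given in the sources used here. For each peak the authors deposited a score, a fold enrichment (a ratio to background), a −log10 p and a −log10 q. The score is 10 times −log10 p rounded down, with no more than 2 exceptions in any list, and no list gives summits. These values describe or rank peaks within a list. The labels name 1 antibody per mark in the protocol and other catalogue numbers per sample, which rise by 1 from sample to sample. In the labels of inputs of day 9 and ESC the strain number, and at day 9 the ROSA number, rises in the same way, while all 22 libraries analysed are labelled alike in strain.

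Peaks of a mark were merged and kept where both day 9 libraries overlapped them by at least 1 bp. Gene starts were those of the RefSeq promoter table for 17274 of 21631 protein-coding genes and both gene ends for the others (GRCm38.p6). The share of a class with a peak gave 1 value per library, tested by exact permutation of stage labels (F) or exact sign flips (mean difference), two-sided, with Benjamini-Hochberg adjustment over 8 tests and a threshold of 0.05. Named regions are the 5 best by mean rank of each class, and genes of fixed lists by their best rank. The members, lists and tests were chosen with earlier results of these data known. The code was tested on simulated lists. Alternatives, including weights by width, rank and gene distance that were chosen after seeing the data, are given in the closing section. Python 3.11.15, numpy 2.4.6, pandas 2.3.3 and matplotlib 3.10.9 were used.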

Additional observations from a re-analysis of the deposited data

Results flagged for a closer look

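The difference in H3K27ac between KLF4-bound and unbound day 9 H3K27ac regions, bound minus unbound, differed between MEF, day 3, day 6 and ESC (F = 89.7, exact permutation test over 10 libraries, adjusted p = 0.00127), from -0.52 points in MEF to 23.7 points at day 6. It is given here because the same contrast took different values at different stages. With equal weight to the 4 width groups the range was -13.5 points in MEF to 2.11 points in ESC, and with equal weight to the peak rank groups -20.4 points in MEF to -3.64 in ESC, below 0 at each stage. With lists of equal length it was -15.1 points in MEF to -1.03 in ESC, with -2.08 at day 6. With the top 50% of each list it was -16.5 points in MEF to 5.61 at day 6. The day 9 classes come from batch EA-3702 and the MEF and ESC libraries from DG-3458, within which the difference between stages was also called (F = 1721, unadjusted exact permutation p = 0.0417 with the replicate block, the smallest it can give).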

How the results depend on the processing

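The acetylated share of KLF4 regions and the KLF4-bound share of H3K27ac regions moved under each alternative: to 74.6% and 36.1% with the top 50% of each list, 58.1% and 55.9% with lists of equal length, 58.8% and 35.3% with an overlap of at least 50% of the shorter interval, 79.2% and 35.9% with q of at most 0.01, 70.6% and 39.8% with KLF4 peaks set to 200 bp about their midpoint, and 67.0% to 79.4% and 32.8% to 50.3% without 1 day 9 library. ESC acetylation of acetylated and unacetylated KLF4 regions kept its order: it was 18.1% for unacetylated regions with the top 50%, 53.0% and 8.83% with equal lists, 42.8% and 5.31% with the 50% overlap, 61.7% for acetylated regions with the q limit, 55.8% and 12.0% with 200 bp, 61.0% to 66.9% and 11.8% to 19.6% without 1 library, 55.0%, 54.8% and 73.6% (acetylated, width groups 1, 2 and 4) and 13.2%, 19.7% and 22.1% (unacetylated, groups 1, 3 and 4), 87.7% and 23.2% near a start and 45.0% for acetylated regions farther away. For KLF4-bound and unbound H3K27ac regions it was 66.5% and 65.9% with the top 50%, 54.2% and 54.3% with equal lists, 71.2% and 49.7% with the 50% overlap, 65.2% and 53.4% with the q limit, 69.6% for bound regions with 200 bp, 66.3% to 71.2% and 42.0% to 57.3% without 1 library, 37.8%, 61.2%, 68.5% and 79.4% (bound, width groups) and 36.5%, 66.8% and 80.6% (unbound, groups 1, 3 and 4), 91.4% and 79.4% near a start and 51.2% and 38.9% farther away. With equal lists the order of bound and unbound regions turned, and so it did in the widest group. The mean bound minus unbound difference over 10 libraries reversed to -2.22 points (exact permutation p = 0.416) with the top 50%, -5.31 (p = 0.00391) with equal lists, -3.54 (p = 0.111) with equal width weights and -9.31 (p = 0.00195) with equal rank weights. Its difference between stages kept its call in 25 of 25 alternatives. The acetylated minus unacetylated difference over libraries kept its call in 22 of 22 alternatives for H3K27ac and 20 of 20 for KLF4, the stage difference of unacetylated KLF4 regions in 22 of 22, and that of unbound H3K27ac regions in KLF4 stayed unresolved in 18 of 18.

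The stage difference of acetylated minus unacetylated KLF4 regions passed the threshold in batch DG-3458 alone, with F = 34.5 in the fit with the replicate block (exact permutation p = 0.0417) and p = 0.00952 without it, each the smallest the test can give, and ran from F = 1.05 to 13.0 without 1 library. For KLF4 it passed with equal weight to near and far regions (F = 8.97, exact permutation p = 0.0476) and ran from F = 1.94 to 24.9 without 1 library. The replicate numbers do not pair the libraries: of 6 pairs of stages 3 had a correlation of deviations above 0.1, from -0.950 to 0.949. The numbers are those of the sample titles. Peak names inside the lists of the 2 day 6 libraries of this batch carry the numbers the other way round, so the check and the p of the block rest on numbers that are themselves uncertain. The cause of these changes was not tested. The lists give no depth, so a share can move with the length of a list, and a peak just under a list's limit counts as none. Day 9 has 2 libraries a mark from 1 batch.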
